A study of Mus musculus with 8 samples.

Results

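Interferon-stimulated genes were followed in whole mouse aorta during angiotensin II (AngII) infusion and after it was stopped. The set held 45 gene symbols, which matched 47 of the 35896 gene rows of the count table. All 45 symbols, as 46 rows, had enough reads to be tested among 17182 genes. The set was chosen by measured values: Ddx60, Iigp1 and Tgtp2 had been the genes raised 3 weeks after AngII, and known interferon targets were listed with them. For the comparison of AngII+3W with CTRL the members' values are therefore given as a description, and the few adjusted p-values printed for it only show where the threshold of the choice fell. The CTRL libraries that served in the choice also serve as the reference for AngII and AngII+2W, so for Ddx60, Iigp1 and Tgtp2 those comparisons are not independent of it.

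The 8 libraries came from aortas of 16 male C57BL6 mice that were 11 weeks old at the start, with 2 mice pooled in each library and 2 libraries in each of 4 groups. AngII mice received 2.8 mg/kg/d of angiotensin II from a minipump for 2 weeks and were studied at the end of the infusion. AngII+2W and AngII+3W mice had the same infusion and were studied 2 and 3 weeks after it stopped, and CTRL mice were untreated littermates matched for age. CTRL mice were taken at every time point of the study, but which of these times the CTRL libraries hold is not given in the labels. All mice carried the same background and no engineered allele was named. Pooling leaves 2 values per group, so the spread between libraries is known only roughly.

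Interferons are cytokines of the antiviral and immune response. Type I interferons (the alpha and beta forms) bind the receptor pair Ifnar1 and Ifnar2, and the kinases Jak1 and Tyk2 then activate a complex that holds Stat2 and Irf9 and binds an interferon-stimulated response element (ISRE). Type II interferon (interferon gamma) binds Ifngr1 and Ifngr2 and acts on a gamma-activated site (GAS). Many target genes answer to both, so the division used here is one of emphasis: the Ifit, Oas and Mx genes, antiviral effectors, form the type I arm (10 genes), and the Gbp and Irgm families, GTPases that attack vacuoles of intracellular pathogens, form the type II arm (7 genes). The other members were the GTPases Iigp1, Tgtp1 and Tgtp2, 4 nucleic acid sensors, 4 transcription factors, 13 other effectors and 4 genes of antigen processing.

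The promoters of 33 members were in the RefSeq table of the GRCm38.p6 build. An ISRE-like word was GAAA, 2 bases of any kind, then GAAA, on either strand. The window ran from 250 bases before to 50 bases after the start. The word stood in 20 of the 33 (60.6%), against 3.99% of all 27025 genes in that promoter table. It was found in 5 of 7 type I promoters (71.4%) and in 6 of 6 type II promoters. A GAS-like word (TTC, 3 bases of any kind, then GAA) stood in 11 of the 33 (33.3%), against 9.55% of the same 27025 genes. It stood in 2 of 7 promoters in the type I arm and 3 of 6 in the type II arm. These letter matches describe the window and are no evidence of binding. The 160 bases before the start are shown for Ddx60, for a pair of genes of each arm and for the near-copies Tgtp1 and Tgtp2, 5′ to 3′ along the gene with the ISRE-like words in capitals.
Ddx60 (chr8:61927927-61928086, plus strand): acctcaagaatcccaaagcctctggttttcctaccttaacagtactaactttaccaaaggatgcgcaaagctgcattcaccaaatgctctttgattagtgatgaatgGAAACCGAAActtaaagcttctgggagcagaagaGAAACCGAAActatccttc
Oas1a (chr5:120907526-120907685, minus strand): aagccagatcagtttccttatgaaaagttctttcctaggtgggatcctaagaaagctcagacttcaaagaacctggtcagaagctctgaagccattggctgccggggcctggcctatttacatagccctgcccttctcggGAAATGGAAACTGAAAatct
Ifit1 (chr19:34640729-34640888, plus strand): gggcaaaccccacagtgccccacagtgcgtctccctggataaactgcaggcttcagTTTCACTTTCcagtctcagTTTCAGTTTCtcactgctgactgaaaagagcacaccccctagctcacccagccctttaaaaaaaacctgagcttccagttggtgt
Gbp2 (chr3:142620503-142620662, plus strand): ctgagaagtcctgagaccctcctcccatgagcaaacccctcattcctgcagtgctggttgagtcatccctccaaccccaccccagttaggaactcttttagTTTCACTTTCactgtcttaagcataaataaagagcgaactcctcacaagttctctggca
Irgm1 (chr11:48871421-48871580, minus strand): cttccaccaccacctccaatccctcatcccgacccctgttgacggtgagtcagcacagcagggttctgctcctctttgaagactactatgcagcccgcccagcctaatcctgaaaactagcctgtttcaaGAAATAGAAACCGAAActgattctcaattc
Tgtp1 (chr11:48992247-48992406, minus strand): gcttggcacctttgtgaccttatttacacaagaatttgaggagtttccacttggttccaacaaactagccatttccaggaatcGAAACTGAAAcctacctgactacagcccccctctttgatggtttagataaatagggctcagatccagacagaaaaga
Tgtp2 (chr11:49064213-49064372, minus strand): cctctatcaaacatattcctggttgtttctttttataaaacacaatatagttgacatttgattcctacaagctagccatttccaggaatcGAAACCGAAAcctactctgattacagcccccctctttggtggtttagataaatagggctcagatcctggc
In Ddx60 the words began 53 and 19 bases before the start. Each arm contributed a promoter in which 2 words overlapped, Oas1a and Irgm1. In both Tgtp promoters a GAS-like word began 11 bases before the ISRE-like word, at 88 bases before the start in Tgtp1 and at 81 in Tgtp2.

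Libraries held 18130441 to 21498200 counts. Apart from a second row named Tgtp2, each tested member row had at least 24 counts in every library, and the highest had 2093. Levels are given as CPM, counts scaled to library size, after TMM scaling, which evens out composition between libraries, and they are not corrected for gene length. The AngII libraries differed from each other: AngII replicate 2 was above replicate 1 for 41 of 46 member rows (89.1%), against 51.8% of all genes tested. CTRL replicate 2 was above CTRL replicate 1 for 37 of 46 (80.4%, against 48.7% of all genes), and AngII+3W replicate 2 above replicate 1 for 34 of 46 (73.9%, against 48.3%). AngII+3W replicate 1 held 2484 CPM of 8 skeletal muscle genes and 6038 CPM of 8 cardiac genes, where AngII+3W replicate 2 held 10.5 and 469 CPM. Cardiac genes were also high in CTRL, at 5276 and 2334 CPM, and lowest in AngII+2W, at 244.5 and 84.03 CPM. The aortic label was met by 8 smooth muscle markers, which summed to 9523 and 7408 CPM for CTRL but to 1760 and 2187 for AngII, 3936 and 3563 for AngII+2W and 1919 and 3388 for AngII+3W. The sum of 6 fibroblast markers was 2140 and 1292 CPM for CTRL, 7997 and 12940 for AngII, 4172 and 2779 for AngII+2W and 1137 and 3022 for AngII+3W. That of 5 red blood cell markers was 4357 and 4296 CPM for CTRL, 3021 and 3060 for AngII, 980.2 and 2559 for AngII+2W and 1182 and 787.4 for AngII+3W. Mitochondrial genes took 8.15% of counts (AngII replicate 2) to 18.3% (AngII+3W replicate 1). These sums differed between groups and, for some, as much between libraries of 1 group. Their part in the members' values was not tested. In bulk tissue a change in the number of cells of a type and a change in RNA per cell cannot be told apart.

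During AngII, 41 of 46 member rows had a log2 fold change above 0 against CTRL, where 48.9% of all genes did, and Ddx60, Iigp1 and Trim30a were called higher. Ddx60 and Iigp1 had been chosen for their values against the same CTRL libraries. Trim30a was not among the genes so chosen, but the whole list was drawn up with earlier results of these data known. The 3 rows passed an adjusted p of 0.05 (edgeR quasi-likelihood test, Benjamini-Hochberg over all genes), or 6.52% of those tested, where 5.10% of all genes did so in either direction and 2.90% upwards. No member fell. At an unadjusted p below 0.05, 20 rows were higher (43.5%, against 10.9% of all genes) and none was lower. Both AngII libraries lay above both CTRL libraries for 26 rows (56.5%, against 24.4% of all genes). The median log2 fold change of the members was 0.44, and that of all genes was −0.01.

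**Figure D1:**
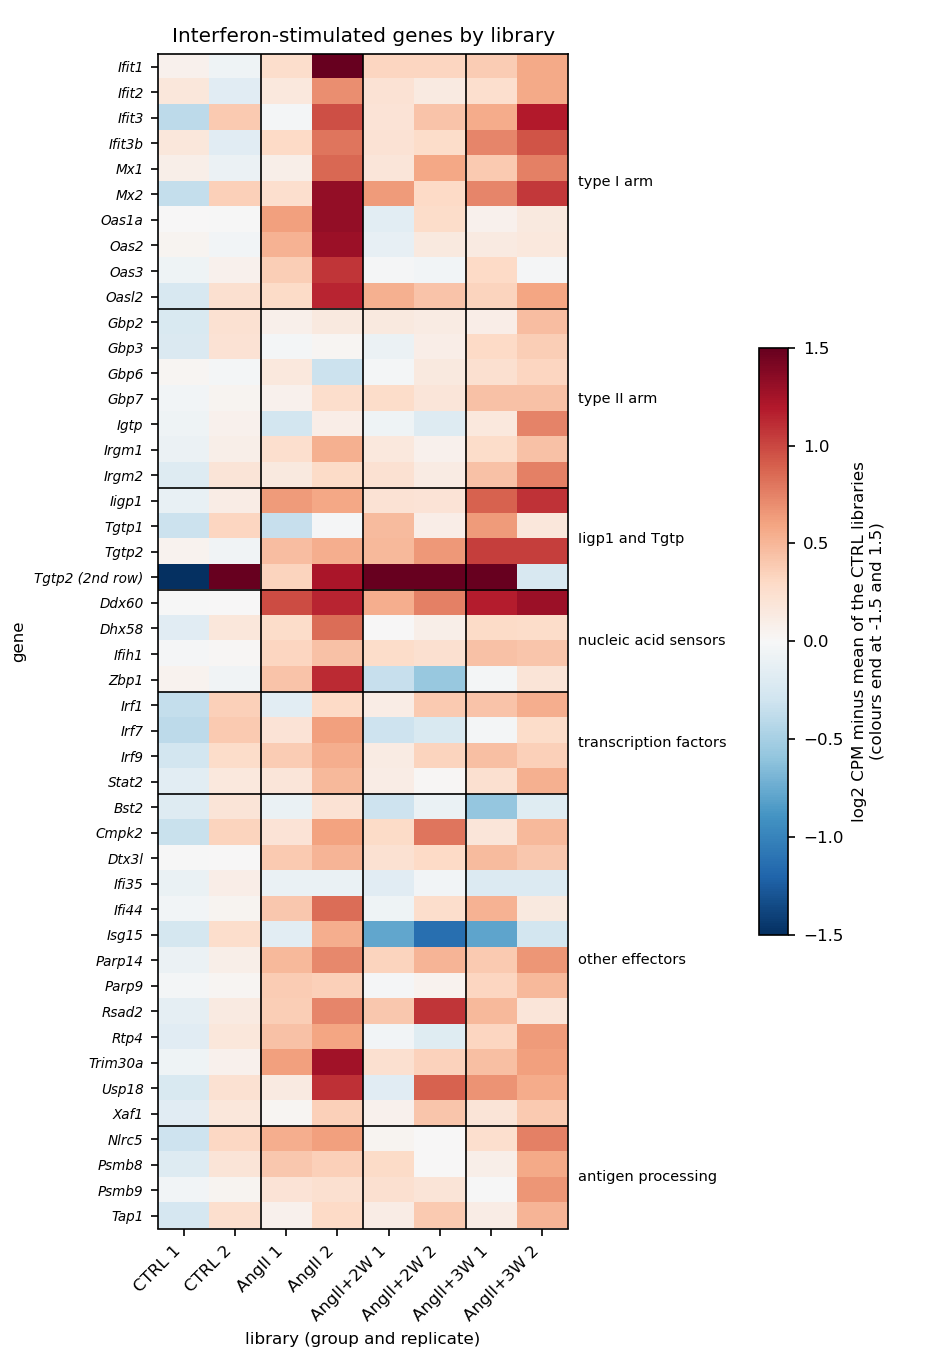
Each row is 1 of the 46 tested member rows and each column 1 library, coloured by log2 CPM minus the mean of the CTRL libraries, with red for higher and blue for lower. The column of AngII replicate 2 is the reddest in the type I arm, while Ddx60, Iigp1 and Tgtp2 are red in both AngII+3W libraries.

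Ddx60, a helicase that takes part in sensing viral RNA (chr8:61928087-62038244), measured 10.5 and 10.6 CPM for CTRL, 20.9 and 23.5 for AngII, 15.5 and 17.8 for AngII+2W and 24.1 and 25.9 for AngII+3W. The groups did not overlap, and AngII+2W lay between CTRL and AngII. In AngII the log2 fold change was 1.07 ± 0.14 (SE, n = 2 libraries per group), with an edgeR adjusted p of 0.0119. With 1 library left out at a time it ran from 0.99 (without AngII replicate 2) to 1.16 (without AngII replicate 1). The call was lost in some of these fits, in which fewer of all genes were called than with all libraries. At 2 weeks after AngII the difference from CTRL was 0.66 ± 0.14, with an edgeR adjusted p of 0.22.

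Iigp1, an immunity-related GTPase, measured 30.1 and 34.9 CPM for CTRL and 50.3 and 48.5 for AngII, then 37.5 and 37.4 for AngII+2W and 59.7 and 68.9 for AngII+3W. Every library after or during AngII was above both CTRL libraries, and the order of the groups was that of Ddx60. Its log2 fold change in AngII was 0.61 ± 0.13 with an edgeR adjusted p of 0.0395, and in AngII+2W 0.21 ± 0.13 with 0.622. The AngII value was 0.50 without CTRL replicate 1 and 0.71 without CTRL replicate 2, its extremes with 1 library left out. Several of these fits lost the call, and they called fewer of all genes than the fit with all libraries.

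Trim30a, a TRIM protein that restrains inflammatory signalling (chr7:104409025-104465193), measured 12.8 and 14.02 CPM for CTRL, 20.6 and 32.3 for AngII, 15.8 and 17.1 for AngII+2W and 18.4 and 20.5 for AngII+3W. AngII replicate 2 lay far above every other library, and AngII replicate 1 only just above AngII+3W replicate 2. The log2 fold change in AngII was 0.98 ± 0.21, with an edgeR adjusted p of 0.0437. It was 0.62 without AngII replicate 2 and 1.27 without AngII replicate 1. Several fits with 1 library left out lost the call, and they called fewer of all genes than the fit with all libraries. Trim30a shares 45.2% of its longest transcript with Trim30d at 90.1% identity, so reads could be split between them.

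**Figure D2:**
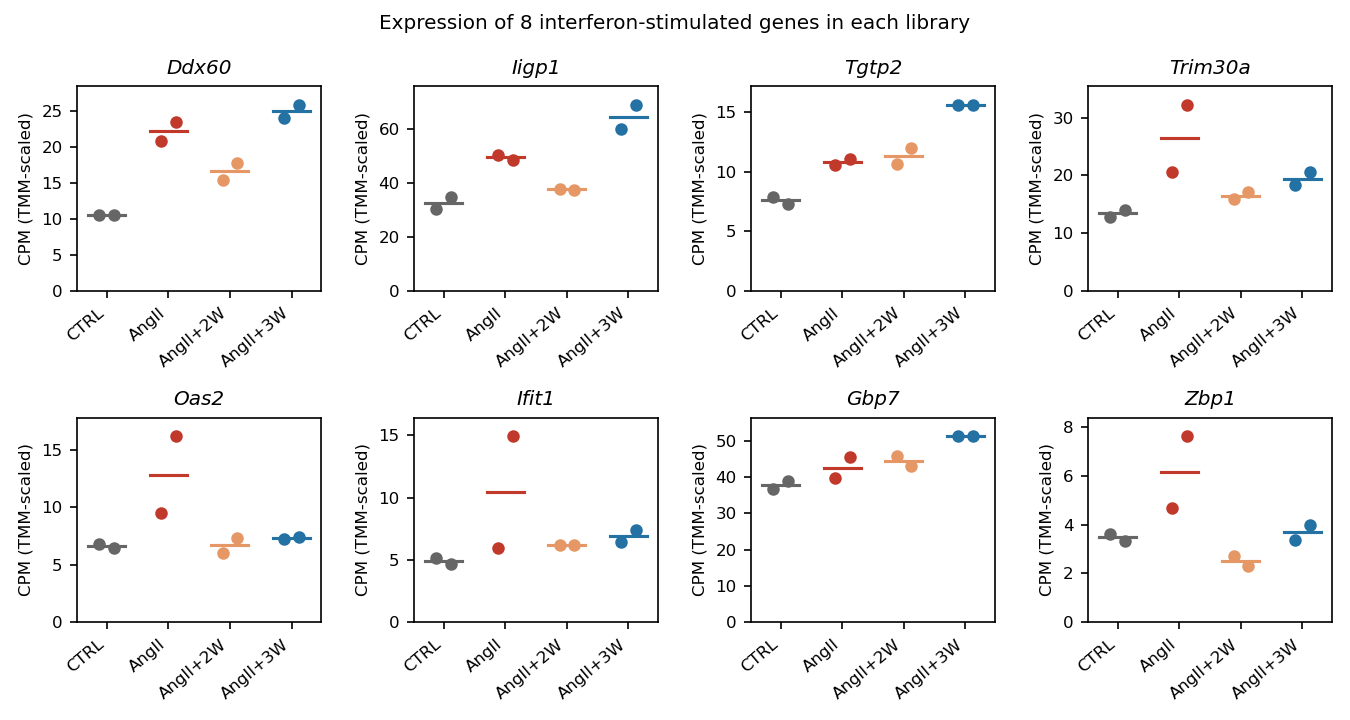
CPM (vertical axis, TMM-scaled, from 0) of 8 members in the 4 groups, with 1 point per library and a bar at the group mean. Ddx60 and Iigp1 lay between CTRL and AngII at AngII+2W and were highest in AngII+3W, while Oas2 measured 16.2 CPM in AngII replicate 2 and at most 9.50 elsewhere.

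The type I arm was higher than CTRL during AngII in 10 of 10 genes, and the type II arm in 4 of 7, with no gene of either arm called. Median log2 fold changes were 0.77 for the type I arm and 0.09 for the type II arm, a difference of 0.68. Single genes ranged from 0.45 to 1.08 in the type I arm and from −0.07 to 0.40 in the type II arm. At an unadjusted p below 0.05, 6 type I genes and 1 type II gene, Irgm1, were higher. The lowest adjusted p was 0.0804 in the type I arm (Oas2) and 0.183 in the type II arm (Irgm1). The difference between the arms rested on 1 library for much of its size: without AngII replicate 2 the type I median was 0.27 and the difference 0.20, and without AngII replicate 1 they were 1.11 and 0.99.

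By library, the type I median relative to the CTRL mean was 0.27 in AngII replicate 1 and 1.11 in replicate 2. All 10 type I genes were higher in replicate 2. The type II median was 0.08 and 0.14 in the same libraries. The 10 macrophage markers moved with this split: their summed level was 379 and 287 CPM for CTRL, 743 and 1220 for AngII, 491 and 508 for AngII+2W and 241 and 407 for AngII+3W, with 6 of 10 called higher in AngII (2.90% of all genes were) and none at 0 counts in a library. Other sums were also higher in AngII replicate 2 than in replicate 1. In replicates 1 and 2 they were 113.3 and 225 CPM for B cell markers, 10.1 and 18.24 for neutrophil markers and 7997 and 12940 for fibroblast markers. Those of T and NK cell, endothelial, smooth muscle and red blood cell markers were higher too. Those of dendritic cell, adipocyte, skeletal muscle and cardiac markers were lower. The part of any of these cells in the type I values was not tested. The sum of 14 T and NK cell markers ranged from 17.1 to 26.8 CPM over the 8 libraries, with none at 0 in a library. In AngII 9 of the 14 had a log2 fold change above 0 and 5 below it, from −0.81 (Trac) to 2.19 (Klrb1c). Of the 14, 1 was called higher (7.14%, against 5.10% of all genes in either direction), the NK cell receptor Klrb1c. Klrb1c measured 0.195 and 0.282 CPM for CTRL, 1.08 and 1.14 for AngII, 0.513 and 0.752 for AngII+2W and 0.645 and 0.645 for AngII+3W. Its log2 fold change in AngII was 2.19 ± 0.46 (edgeR adjusted p 0.0397), with CTRL values near 0.143 CPM, the level of 3 counts. Every later library lay above CTRL for Klrb1c, and its part in the members' values was not tested.

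**Figure D3:**
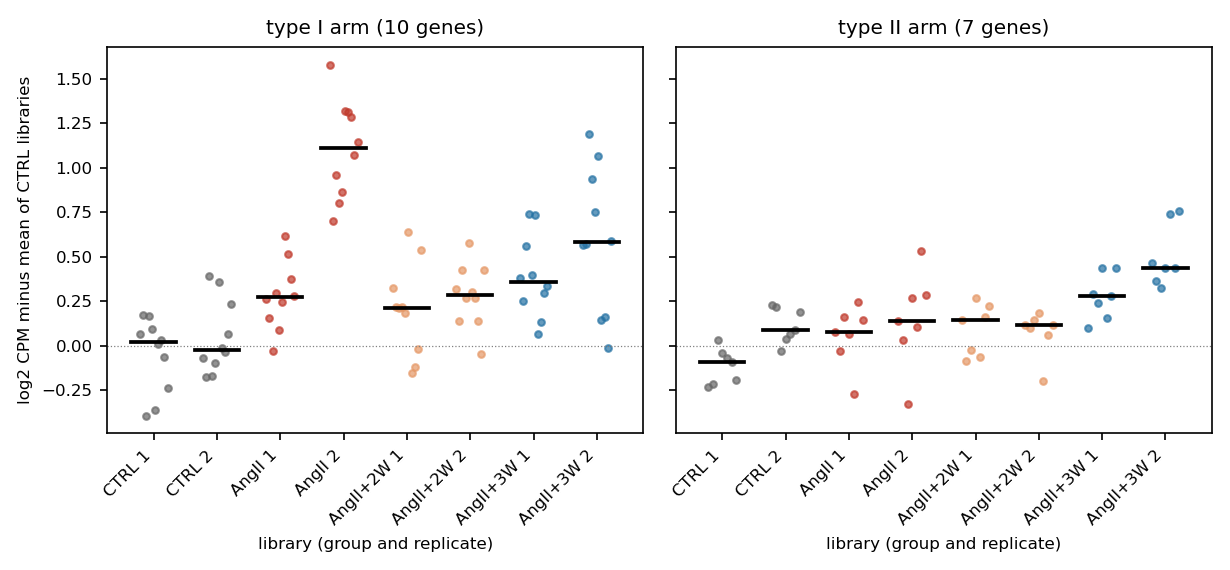
Points are genes and black bars their median, as log2 CPM minus the mean of the CTRL libraries, in each of the 8 libraries for the type I arm (left) and the type II arm (right). The type I bar stands at 1.11 in AngII replicate 2 against 0.27 in replicate 1, and the type II bar is highest in the AngII+3W libraries, at 0.28 and 0.44.

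Within the type I arm, the 2'-5' oligoadenylate synthetases, which make the activator of RNase L, were set apart from the Ifit and Mx genes after their values were seen. Oas2 (chr5:120730333-120749853) measured 6.77 and 6.44 CPM for CTRL, 9.50 and 16.2 for AngII, 6.07 and 7.30 for AngII+2W and 7.26 and 7.41 for AngII+3W. Oas1a, at 2.63 and 2.59 CPM for CTRL, measured 4.05 and 6.63 for AngII, 2.33 and 3.17 for AngII+2W and 2.74 and 2.90 for AngII+3W. For both genes the AngII libraries lay above every other library, and the AngII+2W libraries lay on both sides of CTRL. The log2 fold changes in AngII were 0.96 ± 0.26 for Oas2 and 1.03 ± 0.30 for Oas1a (edgeR adjusted p 0.0804 and 0.0945), and those in AngII+2W were 0.02 ± 0.26 and 0.07 ± 0.30. Oas3 had 0.79 ± 0.29 in AngII and −0.03 ± 0.30 in AngII+2W, and its AngII libraries also lay above every other library. The related Oasl2 differed in the later groups: it measured 13.2 and 18.3 CPM for CTRL, 18.9 and 34.4 for AngII, 22.6 and 20.9 for AngII+2W and 19.6 and 23.4 for AngII+3W, so that both later groups lay above CTRL. Oas1a is 97.6% identical to Oas1g over 98.7% of its transcript, so its counts depend on how reads were divided.

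Ifit1, which binds foreign RNA (chr19:34640871-34650009), measured 5.16 and 4.70 CPM for CTRL, 5.94 and 14.9 for AngII, 6.21 and 6.18 for AngII+2W and 6.45 and 7.36 for AngII+3W. Only AngII replicate 2 was far from the rest, and the fold change of 1.08 ± 0.38 did not pass (edgeR adjusted p 0.16). The near-copies Ifit3 and Ifit3b, 97.8% identical, summed to 12.3 and 17.3 CPM for CTRL, 15.1 and 27.4 for AngII, 16.7 and 18.9 for AngII+2W and 22.1 and 31.7 for AngII+3W. Mx1 and Mx2 belong to a family of dynamin-like GTPases that can block viral replication. Only their transcripts were measured, and whether these mice make a working protein from either was not tested. Their log2 fold changes were 0.54 ± 0.29 and 0.87 ± 0.42 for AngII, 0.40 ± 0.29 and 0.45 ± 0.42 for AngII+2W and 0.59 ± 0.29 and 0.89 ± 0.42 for AngII+3W. Mx2 is annotated as a polymorphic pseudogene, and these transcripts share a stretch that is 94.8% identical.

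In the type II arm, Irgm1, which directs other immunity-related GTPases (chr11:48861968-48871683), measured 21.1 and 23.9 CPM for CTRL, 26.7 and 32.5 for AngII, 25.1 and 23.5 for AngII+2W and 27.3 and 30.4 for AngII+3W. Gbp7, a guanylate-binding protein (chr3:142530342-142550149), measured 36.7 and 38.9 for CTRL, 39.6 and 45.5 for AngII, 45.6 and 43.0 for AngII+2W and 51.2 and 51.1 for AngII+3W. Irgm1 overlapped between AngII and AngII+3W, whereas Gbp7 was highest in AngII+3W in both libraries. Their log2 fold changes in AngII were 0.40 ± 0.15 and 0.17 ± 0.12 (edgeR adjusted p 0.183 and 0.481). Gbp3, Gbp6 and Igtp had AngII values of −0.01 ± 0.17, −0.06 ± 0.17 and −0.07 ± 0.22. Gbp6 shares 61.6% of its transcript with Gm43302 at 99.7% identity, and Igtp and Irgm2 overlap by 7974 bases on the same strand.

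**Figure D4:**
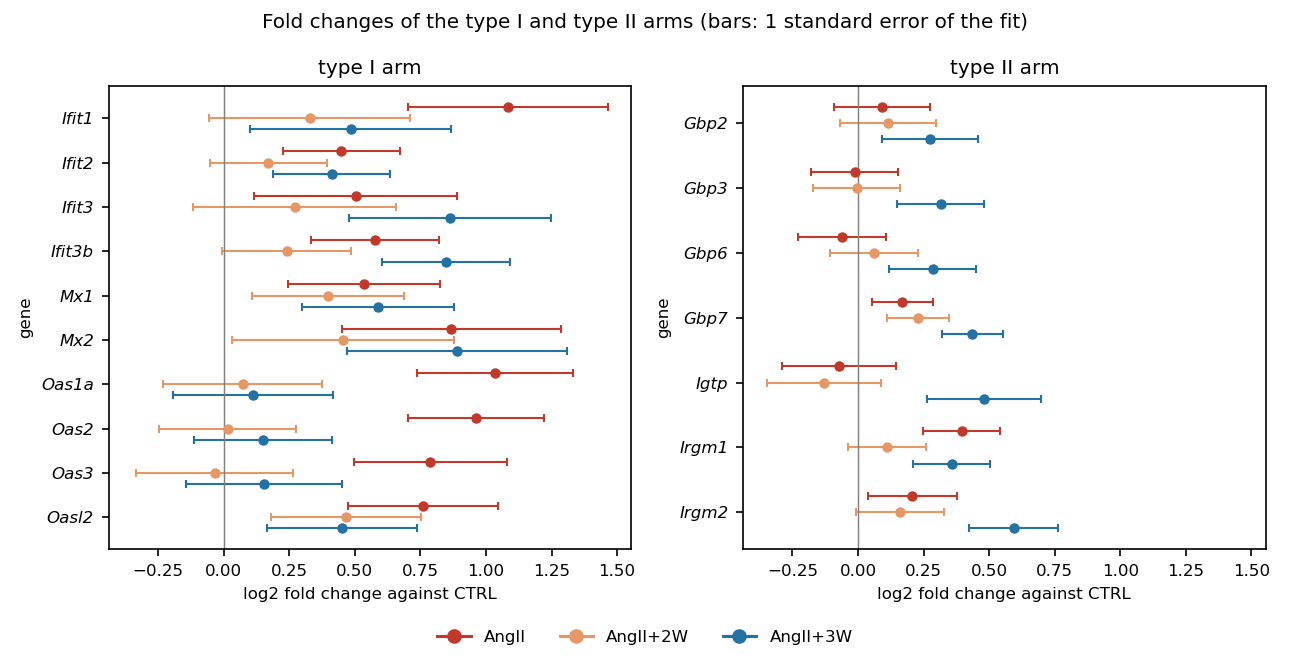
Log2 fold change against CTRL (horizontal axis) with 1 standard error of the fit, for each gene of the type I arm (left) and the type II arm (right) in AngII, AngII+2W and AngII+3W. Oas1a, Oas2 and Oas3 lie near 0 in both later groups, and all 7 type II genes lie to the right of 0 in AngII+3W.

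All 4 sensors were higher than CTRL in AngII, by 0.39 to 1.07 on the log2 scale, and both AngII libraries lay above both CTRL libraries for each, as for 24.4% of all genes. Ifih1 (MDA5, a receptor for long double-stranded RNA) measured 27.6 and 28.1 CPM for CTRL, 34.9 and 38.0 for AngII, 33.7 and 33.0 for AngII+2W and 37.8 and 37.2 for AngII+3W. All treated libraries lay above both CTRL libraries, with a log2 fold change of 0.39 ± 0.11 in AngII (edgeR adjusted p 0.0877) and 0.26 ± 0.11 in AngII+2W (0.45). Zbp1, a sensor of Z-form nucleic acids that can start necroptosis, took another course. It measured 3.61 and 3.34 CPM for CTRL, 4.70 and 7.63 for AngII, 2.71 and 2.31 for AngII+2W and 3.39 and 3.98 for AngII+3W.

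Irf9, the DNA-binding part of the factor that type I interferon activates, measured 11.99 and 17.6 CPM for CTRL, 18.9 and 21.2 for AngII, 15.9 and 18.3 for AngII+2W and 19.9 and 18.6 for AngII+3W, and Stat2 26.1 and 32.7, 33.0 and 41.0, 31.5 and 29.6, and 34.5 and 42.4 in the same order. For both, AngII replicate 1 lay above the higher CTRL library by less than the gap between the CTRL libraries. The 4 factors, which include Irf1 and Irf7, had log2 fold changes of 0.04 to 0.44 in AngII, and none had an adjusted p below 0.273.

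Of the 13 other effectors, 12 were higher in AngII, and their log2 fold changes ran from −0.10 (Ifi35) to 0.98 (Trim30a). Dtx3l, a ubiquitin ligase that pairs with Parp9, measured 34.2 and 34.4 CPM for CTRL, 45.1 and 48.7 for AngII, 40.2 and 42.3 for AngII+2W and 47.8 and 45.3 for AngII+3W. The groups CTRL and AngII did not overlap, and the log2 fold change was 0.45 ± 0.11 with an edgeR adjusted p of 0.0584. Parp14, an ADP-ribosyltransferase, had 0.60 ± 0.15 (0.0668), and Parp9 had 0.37 ± 0.11 (0.116). Dtx3l and Parp9 overlap by 682 bases on opposite strands. Isg15, a ubiquitin-like modifier, had the lowest log2 fold change of the members in AngII+2W against CTRL: it measured 2.44 and 3.58 CPM for CTRL, 2.65 and 4.36 for AngII, 1.68 and 1.29 for AngII+2W and 1.67 and 2.42 for AngII+3W. It shares 63.8% of its transcript with AC151275.1 at 95.2% identity. Rsad2 (viperin), an antiviral enzyme, measured 20.4 and 24.5 CPM for CTRL, 28.9 and 37.3 for AngII, 29.6 and 47.3 for AngII+2W and 31.4 and 25.4 for AngII+3W. Its spread within groups was wide, and its highest library was AngII+2W replicate 2.

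All 4 antigen-processing genes lay above CTRL in AngII, by 0.16 to 0.55 on the log2 scale. Nlrc5, the transactivator of MHC class I, measured 24.0 and 36.8 CPM for CTRL, 43.5 and 45.4 for AngII, 30.7 and 30.0 for AngII+2W and 35.5 and 50.2 for AngII+3W. Psmb8, an immunoproteasome subunit, measured 19.7 and 26.0 for CTRL, 30.1 and 29.0 for AngII, 27.6 and 22.7 for AngII+2W and 24.1 and 33.7 for AngII+3W. The CTRL libraries stood far apart for both genes, and neither passed in AngII (log2 fold change 0.55 ± 0.23 and 0.37 ± 0.21, edgeR adjusted p 0.231 and 0.378).

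At 2 weeks after AngII was stopped, no member was called against CTRL, and no gene at all was (0% of 17182). The members' median log2 fold change was 0.21, with 36 of 46 rows above 0, where 8588 of 17182 genes were. At an unadjusted p below 0.05, 6 rows were higher and Isg15 was lower (log2 fold change −1.01 ± 0.37, edgeR adjusted p 0.389), or 13% higher against 4.52% of all genes. DESeq2 and the likelihood ratio test, which called 373 and 420 genes in all here, called no member. The arm medians were 0.26 (type I) and 0.11 (type II). Against AngII itself, 34 of 46 rows were lower in AngII+2W, where 49.6% of all genes were higher. None was called, against 0.163% of all genes. Of these, 12 rows were lower at an unadjusted p below 0.05, against 8.45% of all genes. The type I arm was lower in 10 of 10 genes with a median of −0.37, and the type II median was 0.01. Without AngII replicate 2 these medians were 0.05 and 0.04. Zbp1 had the lowest adjusted p, at 0.0981, with a log2 fold change of −1.30 ± 0.28. The comparisons of AngII+2W with CTRL and with AngII share the AngII+2W libraries.

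In AngII+3W against CTRL, the contrast that chose the set, 43 of 46 rows lay above CTRL (53.6% of all genes) with a median log2 fold change of 0.39. Ddx60 (1.24 ± 0.14), Iigp1 (0.99 ± 0.13) and Tgtp2 (1.04 ± 0.15) had been chosen for an adjusted p below 0.05 in this contrast, which 0.285% of all genes had in either direction and 0.0175% upwards, and nothing is read from their passing. They lay just inside the threshold, at 0.0455, 0.0455 and 0.0466, and Dtx3l, Ifih1 and Gbp7 came next outside it at 0.146, 0.153 and 0.18. Both AngII+3W libraries were above both CTRL libraries in 32 rows and below in 2. Of all genes 19.8% were above, and 3144 of 17182 were below. The arm medians were 0.47 for type I and 0.36 for type II. All 7 type II genes were above CTRL, led by Irgm2 (0.59 ± 0.17) and Igtp (0.48 ± 0.22). Ddx60, Iigp1 and Tgtp2 measured 24.1, 59.7 and 15.6 CPM in AngII+3W replicate 1 and 25.9, 68.9 and 15.6 in replicate 2, the libraries by which they had been chosen. Skeletal and cardiac muscle genes were high in AngII+3W replicate 1, and their part in the members' values was not tested.

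Tgtp1 and Tgtp2, T-cell-specific GTPases at chr11:48985327-48994172 and chr11:49057194-49064206, are 99.8% identical over the whole transcript, and the table held a second row named Tgtp2 without a position. Tgtp2 measured 7.89 and 7.29 CPM for CTRL, 10.5 and 11.1 for AngII, 10.7 and 11.97 for AngII+2W and 15.6 and 15.6 for AngII+3W. Tgtp1 measured 5.85 and 9.27, 5.78 and 7.30, 10.3 and 7.89, and 11.5 and 8.33 in the same order, and the second Tgtp2 row between 0.292 and 4.67. Summed over the 3 rows, the level was 17.1 ± 4.28 CPM for CTRL, 19.4 ± 2.39 for AngII, 24.8 ± 0.306 for AngII+2W and 27.8 ± 4.08 for AngII+3W (SD, n = 2). Tgtp2 alone was higher in every treated library than in CTRL, and highest in AngII+3W, whereas the sum in CTRL replicate 2, 20.1 CPM, was above that in AngII replicate 1, 17.7 CPM. The log2 difference of AngII+3W from CTRL was 0.70 for the summed rows. With near-identical copies summed, members called in that contrast numbered 2 in place of 3, and all genes called numbered 48.

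Compared with AngII, the members in AngII+3W were evenly divided, with 22 rows higher and 24 lower (54.0% of all genes were higher), and none was called where 1.61% of all genes were. At an unadjusted p below 0.05, 3 were higher and 3 lower, against 7.41% and 10.4% of all genes. The type II arm was higher in 6 of 7 genes (median 0.33) and the type I arm in 4 of 10 (median −0.17). Oas1a and Oas2 were lower by −0.92 ± 0.30 and −0.81 ± 0.26 (edgeR adjusted p 0.168 and 0.165). Tgtp2 was higher by 0.53 ± 0.15 (0.124) and Iigp1 by 0.38 ± 0.13 (0.178). Compared with AngII+2W, 40 of 46 rows were higher in AngII+3W (52.1% of all genes) with a median of 0.22. None was called, as was no other gene (0% of all genes), with 8 rows higher at an unadjusted p below 0.05 (4.62% of all genes). Iigp1 had the lowest edgeR adjusted p, 0.173, with a log2 fold change of 0.78 ± 0.13. Ddx60 had 0.59 ± 0.14 with 0.391. Both of these comparisons reuse the AngII+3W libraries that chose the set, so nothing is read from the p-values of Ddx60, Iigp1 and Tgtp2 here.

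The interferons themselves were barely measured. Of 21 ligand genes, 3 had enough reads to be tested and 10 had no count in any library. Ifng had 8 counts over all libraries and Ifnb1 had 1. Among the ligands tested, Il18, a cytokine that promotes interferon gamma release, measured 0.633 and 1.03 CPM for CTRL, 1.46 and 1.66 for AngII, 2.01 and 1.67 for AngII+2W and 0.806 and 0.967 for AngII+3W. Its log2 fold change in AngII was 0.90 ± 0.37 (edgeR adjusted p 0.225), that of Il15 was 0.22 ± 0.22 and that of Ifna16 −0.52 ± 0.76.

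Of 15 receptors, kinases and factors, 1 was called in AngII (6.67%, against 5.10% of all genes), Irf8, a factor of myeloid cells. Irf8 measured 5.55 and 8.14 CPM for CTRL, 18.8 and 22.4 for AngII, 8.64 and 9.83 for AngII+2W and 6.02 and 9.72 for AngII+3W, a log2 fold change of 1.59 ± 0.28 in AngII (edgeR adjusted p 0.0228). Only the AngII libraries stood apart. The type I receptor chains Ifnar1 and Ifnar2 had 0.37 ± 0.12 and 0.24 ± 0.15 in AngII (0.135 and 0.436), and the type II chains Ifngr1 and Ifngr2 had 0.14 ± 0.13 and −0.19 ± 0.17 (0.639 and 0.606). The kinase Jak1 had 0.34 ± 0.11 (0.146).

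Nucleic acid sensing genes outside the set were higher in AngII in 14 of 17, with a median log2 fold change of 0.67, and 2 were called (11.8%, against 5.10% of all genes). These were Ifi203, of the family of DNA-binding PYHIN proteins (0.93 ± 0.14, edgeR adjusted p 0.0164), and Myd88, the adaptor of Toll-like receptors (0.62 ± 0.13, 0.0397). The adaptor Sting1 (1.28 ± 0.29, 0.0515) and Ifi205 (1.12 ± 0.26, 0.0519) did not pass. Ifi203 measured 36.6 and 35.2 CPM for CTRL, 68.8 and 68.3 for AngII, 49.9 and 56.0 for AngII+2W and 72.6 and 57.6 for AngII+3W, so that both AngII+3W libraries were again above both CTRL libraries. Sting1 measured 4.92 and 6.63, 11.8 and 16.2, 5.88 and 7.57, and 4.95 and 7.90 in the same order, with both later groups overlapping CTRL. All 17 sensing genes were lower in AngII+2W than in AngII, none of them called.

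Of 10 genes that restrain the pathway, 1 was called in AngII (10%, against 5.10% of all genes), the phosphatase Ptpn6 (1.35 ± 0.28, edgeR adjusted p 0.0395). Socs3, an inhibitor of Jak kinases, measured 5.41 and 5.55 CPM for CTRL, 8.75 and 24.9 for AngII, 6.44 and 5.96 for AngII+2W and 4.51 and 4.94 for AngII+3W. AngII replicate 2 carried its fold change of 1.62 ± 0.42 (0.0739). Pias1, another inhibitor, had −0.44 ± 0.13 (0.111), and the dNTP hydrolase Samhd1 0.43 ± 0.14 (0.139).

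Of 44 tested rows of other interferon-stimulated genes, 39 were higher in AngII (48.9% of all genes were) and 4 were called (9.09%, against 5.10%): Mndal (0.93 ± 0.15, edgeR adjusted p 0.0185), Slfn5 (0.71 ± 0.12, 0.0208), Slfn2 (1.30 ± 0.25, 0.0337) and Ly6e (0.79 ± 0.18, 0.0464). Of 30 tested interferon gamma targets outside the set, 24 were higher and none was called, with 8 at an unadjusted p below 0.05 (26.7%, against 10.9% of all genes). The lowest adjusted p was that of Casp1, the inflammatory caspase (0.86 ± 0.21, 0.0586). Serping1, the inhibitor of complement C1, had 1.27 ± 0.40 (0.125), Gm4951 had 0.75 ± 0.22 (0.103) and Gbp9 had 0.48 ± 0.15 (0.108). Serping1 measured 143 and 109 CPM in CTRL and 230 and 376 in AngII, the higher in replicate 2. DESeq2 called 2 of these targets, and 1588 genes in all. With 1 library left out at a time, the 8 genes called in these lists kept a log2 fold change above 0 in AngII. These values ran from 0.54 (Myd88 without AngII replicate 2) to 1.88 (Irf8 without CTRL replicate 2). All 8 lost the call without any CTRL or AngII library, in fits that called fewer of all genes than the fit with all libraries.

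Gbp9, with Gbp4 and Gbp10, which were singled out after their values were seen, was highest in AngII+3W. Gbp4 measured 22.7 and 32.0 CPM for CTRL, 34.8 and 33.5 for AngII, 30.8 and 35.2 for AngII+2W and 58.4 and 60.9 for AngII+3W. Gbp10 measured 9.94 and 9.41, 9.56 and 9.48, 8.07 and 11.2, and 16.8 and 17.8 in the same order, and Gbp9 22.6 and 29.1, 35.5 and 36.7, 34.7 and 39.0, and 50.4 and 49.4. In each of the 3 genes both AngII+3W libraries lay above all others. Of the 30 tested interferon gamma targets outside the set, 13 were higher in AngII+3W than in AngII and 17 lower, with a median of −0.06. Both AngII+3W libraries lay above both AngII libraries for 8 of them (26.7%, against 24.8% of all genes) and below for 8. Over all genes they lay below for 4164 of 17182. Against AngII the log2 differences were 0.80 ± 0.17 (Gbp4), 0.86 ± 0.18 (Gbp10) and 0.47 ± 0.14 (Gbp9), with edgeR adjusted p of 0.0671, 0.0676 and 0.156. These p-values are description only, because the genes were singled out by their values. None of the genes of the 6 lists passed in any comparison other than AngII with CTRL. DESeq2 called 18 of them in AngII+3W against AngII and 9 in AngII+2W against AngII, where it called 968 and 685 genes in all.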

How the data were processed

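RNA from mouse aorta (ribosomal RNA depleted) was sequenced in 8 libraries of 2 pooled mice each, 2 libraries per group. The deposited values are expected counts per gene: per the study's methods the authors estimated transcript abundance with Salmon against Ensembl cDNA and summed it to genes, and the processing notes name FastQC, MultiQC, Salmon, edgeR and the build GRCm38.p6. The deposited expected counts were whole numbers, so rounding changed none. Columns were matched to samples by title, and no column was left unused. Library totals ran from 18130441 to 21498200 counts. No intervals were given beyond the standard errors of the fit, and 3 counts correspond to 0.14 to 0.165 CPM.

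Genes were kept by edgeR's filterByExpr, which left 17182 of 35896, of which 11469 had no count in any library. All 8 libraries entered 1 edgeR (4.0.16) quasi-likelihood fit with group as the only term, TMM scaling and 4 residual degrees of freedom, and p-values were adjusted by Benjamini-Hochberg over all genes tested (threshold 0.05). The common biological coefficient of variation was 0.202. The same fit was tested on simulated data. For 1 gene on its own, an exact permutation of 2 against 2 libraries cannot give p below 0.33, so none was run. Log2 CPM used a prior count of 2. Alternatives were run with R 4.3.3, DESeq2 (1.42.0) and limma (3.58.1). The paired check is given with the processing limits.

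The members and the gene lists were chosen with earlier results of these data known. Named with values per library were Ddx60, Iigp1, Tgtp1, Tgtp2, members called in a comparison without AngII+3W and the 2 members of each role with the lowest p in AngII, then the receptors and up to 4 genes of each pathway list with the lowest p in AngII. Other members named were chosen after their values were seen. Of the gene identifiers 98.7% were in GENCODE M21 (GRCm38), which gave the positions. A second row named Tgtp2 and one named Irgm1, the latter with no count, had no position there. Near-copies were searched with BLAST (2.17.0) among GENCODE transcripts, reporting matches of at least 90% identity over at least 20% of the transcript. Promoter sequences were RefSeq's (GRCm38.p6). The strand setting of the counting is not given in the sources used here, so reads of overlapping genes on opposite strands may not be separable. One further gene that this rule names is not reported here.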

Additional observations from a re-analysis of the deposited data

Results flagged for a closer look

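Zbp1 stood above both CTRL libraries in both AngII libraries and below both CTRL libraries in both AngII+2W libraries, the only member row to lie on opposite sides of CTRL in 2 groups without overlap. Over all genes, both AngII libraries lay above both CTRL libraries for 24.4%, and both AngII+2W libraries lay below them for 3809 of 17182. How many of all genes did both was not counted, so nothing is read from this 1 row. The ratio of its mean CPM in AngII to that in AngII+2W was 1.30 on the log2 scale. The edgeR quasi-likelihood test of that difference gave an adjusted p of 0.0981, and the rows for the 2 groups against CTRL gave log2 fold changes of 0.83 ± 0.28 (0.14) and −0.47 ± 0.29 (0.623). Counts of Zbp1 were low, at 2.31 to 7.63 CPM, and the cause was not tested.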

How the results depend on the processing

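The medians of all members and of both arms moved by less than their SD between replicates under the 12 other normalizations, filters, tests and gene definitions that kept all libraries. Calls were less stable. Members called in AngII numbered 3, and they numbered 1 with library totals alone, 5 with DESeq2, 6 with the likelihood ratio test and 1 when only the 2 groups compared were fitted, while all genes called numbered 877 and then 622, 1588, 1711 and 1149. Members called in AngII+2W against AngII numbered 1 with DESeq2, 1 with the likelihood ratio test and 1 with only the 2 groups. All genes called there numbered 685, 766 and 884. In AngII+3W against AngII+2W members called numbered 1 with DESeq2 and 1 with the likelihood ratio test, and all genes 221 and 273. The 3 members called in AngII+3W against CTRL numbered 0 with library totals alone, 0 with only the 2 groups and 0 with a replicate block. All genes called there numbered 1, 0 and 4. With 1 library left out, calls of members and of all genes changed too.

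Sensing genes called in AngII numbered 2 and became 5 with no filter, 4 with at least 10 counts in every library, 10 with DESeq2, 9 with the likelihood ratio test, 4 with limma-voom, 4 with the newer and 4 with the robust quasi-likelihood fit, 4 with only the 2 groups and 5 with a replicate block. Restraint genes became 0 with library totals alone, 2 with no filter, 2 with DESeq2 and 2 with the likelihood ratio test. Interferon gamma targets became 2 with DESeq2, 2 with the likelihood ratio test and 2 with only the 2 groups. Other interferon-stimulated genes became 8 with the likelihood ratio test. All genes called in AngII numbered 877, and 622 with library totals alone, 1132 with no filter and 942 with at least 10 counts. They numbered 1588 with DESeq2, 1711 with the likelihood ratio test and 840 with limma-voom. The newer and robust fits gave 937 and 915, only the 2 groups 1149 and a replicate block 870. Over all lists of other genes, AngII+2W against CTRL gave 1 with DESeq2 and 1 with the likelihood ratio test. All genes called there numbered 373 and 420. AngII+2W against AngII gave 1 with no filter, 9 with DESeq2, 9 with the likelihood ratio test and 8 with only the 2 groups. All genes called numbered 242, 685, 766 and 884 in the same order. AngII+3W against AngII gave 8 with no filter, 3 with at least 10 counts, 18 with DESeq2 and 15 with the likelihood ratio test. It gave 1 with limma-voom, 2 with the robust fit and 4 with a replicate block. In the same order, all genes called numbered 522, 362, 968, 1068, 287, 343 and 221. AngII+3W against AngII+2W gave 1 with DESeq2 and 2 with the likelihood ratio test, where all genes called numbered 221 and 273. The cause was not tested.

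Each library was left out in turn, with a lone library taken to vary like the other groups. Calls of members, of the other lists and of all genes changed in these fits, so only effect sizes are given. Against CTRL the AngII median was 0.23 to 0.56 for all members, 0.27 to 1.11 for the type I arm, −0.029 to 0.21 for the type II arm and 0.20 to 0.99 for the difference between arms. The type II median was −0.0091 to 0.23 in AngII+2W and 0.22 to 0.52 in AngII+3W. For AngII+2W against AngII the ranges were −0.41 to −0.052 (all members), −0.77 to 0.046 (type I) and −0.72 to 0.0011 (difference), and for AngII+3W against AngII −0.15 to 0.14, −0.58 to 0.23 and −0.84 to −0.12, with 0.18 to 0.37 for type II. The ends without AngII replicate 1 or 2 set most of these ranges.

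The groups share replicate numbers but not mice. Differences between replicates 2 and 1 correlated between groups from −0.02 (CTRL and AngII) to 0.40 (CTRL and AngII+2W) and 0.59 (AngII and AngII+3W) across 8591 genes. Not every pair of groups was correlated and no label ties the numbers to a shared litter or day, and the numbers were therefore used as names, with their link to the libraries not settled. A replicate block gave 4 members called in AngII, among 870 genes called in all. With 2 libraries per group, a p that misses the threshold shows no absence of change, and the members at low counts carry the widest errors.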
